A study of Mus musculus with 9 samples.

Results

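The nuclear-encoded subunits of the mitochondrial respiratory chain and of ATP synthase were described in RNA sequencing of mouse aortic arch. Members were chosen from the deposited table by name and by level. The names were Sdha to Sdhd and symbols that begin with Uqcr or with Cox4 to Cox8. Symbols with Nduf before a, b, c, s or v and a digit, or with Atp5 before a letter from a to o, were also taken. Ndufab1 and Atp5s, for example, were not members. The level was at least 1 FPKM in at least 3 of the 9 libraries. FPKM is a fragment count scaled to the length of the gene and to the total of the library, so levels of different genes can be compared per length. Of 82 names that matched, 79 passed, out of 21989 genes in the table and 12895 that met the same level filter. They were 36 genes named as complex I, 4 of complex II, 8 of complex III, 16 of complex IV and 15 of ATP synthase. Ndufa4 is counted with complex I for its symbol, although the protein is known as a subunit of complex IV.

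The 9 libraries fell into 3 groups of 3. The control mice were C57BL/6J on a standard diet. The model mice were ApoE-/- on a high-fat diet for 15 weeks, a genotype that lacks apolipoprotein E in the whole body and is a standard mouse model of atherosclerosis. The high dose mice were ApoE-/- on the same diet and also received ZCL, named for the plant Ziziphora clinopodioides Lam. of the series title, by gavage at 5.12 g/kg/day for 15 weeks. Control and model differ in both genotype and diet, which cannot be told apart, and the loss of ApoE and the diet were shared by model and high dose. Ages were not given, and the labels do not say whether libraries of a group are from different mice, so p-values measure the spread between these libraries, which may be technical.

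The respiratory chain sits in the inner mitochondrial membrane. Complex I (NADH dehydrogenase) and complex II (succinate dehydrogenase) pass electrons to coenzyme Q, complex III passes them to cytochrome c and complex IV (cytochrome c oxidase) to oxygen. Complexes I, III and IV pump protons, and ATP synthase uses the returning protons to make ATP. Heart muscle and brown fat are especially rich in mitochondria, whereas the smooth muscle of the arterial wall holds fewer. Several complex IV subunits exist as a muscle or heart form and a form found in most tissues. The c subunit, which forms the proton-driven ring of ATP synthase, is encoded by 3 genes, Atp5g1, Atp5g2 and Atp5g3, whose mature proteins are the same.

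Promoters of 5 isoform genes are printed first, since Cox6a2 and Atp5g1, the members that differed most between libraries, belong to isoform sets of complex IV and of the c subunit. They are the 3 c subunit genes, Cox6a1 as the form of most tissues and Cox8b as a form of muscle and brown fat. The sequences are RefSeq promoters on GRCm38.p6, read 5′ to 3′ along the gene. Only the longest stretch outside annotated exons is given, except for Atp5g2. For Atp5g2 the NRF1 match is printed with a few bases on each side, without regard to exons. Capitals mark matches to the NRF1 consensus (a palindrome, the first run of capitals in Cox6a1), to the shorter sequence TGCGCA searched as a partial NRF1 site, to the estrogen-related receptors (ERR, TCAAGGTCA) or to a muscle E-box (CAGCTG), searched on both strands. NRF1 and the estrogen-related receptors are known activators of many respiratory genes. Atp5g1 lies at chr11:96075671-96075881 on the minus strand, Atp5g2 at chr15:102671072-102671097 (minus), Atp5g3 at chr2:73911327-73911576 (minus), Cox6a1 at chr5:115348982-115349129 (minus) and Cox8b at chr7:140900447-140900696 (minus).
Atp5g1: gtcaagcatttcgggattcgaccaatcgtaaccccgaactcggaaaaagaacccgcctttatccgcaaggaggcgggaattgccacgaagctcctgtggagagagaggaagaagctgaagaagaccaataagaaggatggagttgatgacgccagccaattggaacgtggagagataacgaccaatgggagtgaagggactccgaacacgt
Atp5g2: ctccggccGCGCATGCGCAgagcctt
Atp5g3: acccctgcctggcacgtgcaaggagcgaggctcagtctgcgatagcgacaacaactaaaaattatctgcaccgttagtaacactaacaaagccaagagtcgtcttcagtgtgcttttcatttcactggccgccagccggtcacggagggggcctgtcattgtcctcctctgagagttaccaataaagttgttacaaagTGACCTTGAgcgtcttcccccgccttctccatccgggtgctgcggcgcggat
Cox6a1: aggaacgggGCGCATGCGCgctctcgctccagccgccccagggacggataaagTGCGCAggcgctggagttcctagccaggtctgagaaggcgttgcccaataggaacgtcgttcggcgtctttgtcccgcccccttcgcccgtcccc
Cox8b: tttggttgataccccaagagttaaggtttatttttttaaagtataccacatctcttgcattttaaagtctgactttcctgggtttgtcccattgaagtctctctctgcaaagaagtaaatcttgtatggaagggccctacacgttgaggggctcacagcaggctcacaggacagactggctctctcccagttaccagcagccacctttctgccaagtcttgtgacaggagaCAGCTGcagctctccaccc
The Atp5g1 stretch of 211 bases held none of the motifs. The NRF1 letters began 42 bases before the start of Atp5g2 and 162 bases before that of Cox6a1, and in Atp5g2 the shorter site overlaps them. The ERR letters of Atp5g3, on the other strand, began 52 bases before its start, and the E-box of Cox8b 19 bases before its start.

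Over all members, 64 of 79 had a RefSeq promoter, and the 250 bases before the start were searched. The NRF1 consensus occurred in 4 of the 64 (6.25%: Atp5g2, Atp5k, Cox6a1 and Ndufa11) and in 0.877% of 27025 genes. The shorter TGCGCA, which the consensus does not contain, occurred in 13 members (20.3%) and in 7.36% of all genes. The ERR letters were found in 1 member, Atp5g3 (1.56%), and in 0.422% of all genes. The core CCGGAAGT of ETS factors, a family that includes GABP, was present in 3 members (4.69%: Atp5h, Uqcr11 and Uqcrh) and in 3.23% of all genes. TAAAAATA, a MEF2 core, was found in 0 members and in 2.84% of all genes. CAGCTG occurred in 6 members (9.38%) against 14.7%, and the TATA letters TATAAA in 4 (6.25%) against 14.3%. These are matches of letters in a window and carry no test.

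Some facts of the libraries touch every value that follows. Apoe stood at 340 to 1006 FPKM in the control libraries, 18.9 to 33.4 in the model libraries and 25.4 to 93.7 in the high dose libraries. Smooth muscle and endothelial markers of the arterial wall were present in every library, with summed levels of 488 to 4483 and 222 to 509 FPKM. The libraries also differed in markers of other tissues and cells. Summed over 12 cardiac muscle genes, control 1, control 2, high dose 2 and high dose 3 held 7844 to 29358 FPKM and the other 5 libraries 27.9 to 89.9. In those 5, 9 of the 12 cardiac genes still reached 1 FPKM, and Myh6, the cardiac myosin, stood at 1.85 to 6.34. Summed over the 8 brown fat genes that exclude the member Cox7a1, control 3 held 11789 FPKM and the other 8 libraries 744 to 3906. Summed over 10 macrophage genes, the levels were 240 to 763 FPKM in control, 1445 to 5796 in model and 574 to 2956 in high dose, without overlap between control and model. Summed over 6 chromaffin and sympathetic genes, they were 19.9 to 338 FPKM in control, 0.228 to 2.35 in model and 7.06 to 1675 in high dose, so that the model libraries were below all others. Globin transcripts took 14.3% of all FPKM in model 1 and 0.567% to 8.71% in the others. Airway markers reached 25282 FPKM and fast skeletal muscle markers 11032 in high dose 2. In that library a gene's level relative to its mean rose with transcript GC content across all genes (Spearman rho 0.43 over 12455 genes, which are not independent), against -0.17 to -0.0033 in the other 8, and it was 0.25 over the 79 members. Relative depth, from the steps between low FPKM values, ran from 56.3% of the deepest library in control 2 to 100% in model 1. Since the samples are bulk tissue, fewer cells of a type and less RNA per cell cannot be told apart.

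Respiratory chain and ATP synthase transcripts were among the most abundant of the tissue. The median of the members' median levels stood at the 98.7 percentile of all genes tested, and 69 of 79 had a median of at least 100 FPKM over the 9 libraries. Their summed share of all FPKM was 7.91%, 5.29% and 11.7% in control 1, 2 and 3. In the model libraries it was 3.90%, 9.48% and 10.4%, and in the high dose libraries 8.44%, 6.03% and 7.97%. The 3 groups overlapped, with means of 8.30% ± 3.23, 7.93% ± 3.52 and 7.48% ± 1.28 (SD, n = 3 each). The lowest library was model 1 and the highest control 3, which is the library with the most brown fat transcripts. Model 1 remained the lowest, at 4.55%, when globin was taken out of the total. Summed smooth muscle markers were highest in control 2, model 1 and high dose 2 (3395, 4483 and 4213 FPKM, against 488 to 2253 in the others). These were also the libraries with the lowest share in each group. The part of brown fat, blood or smooth muscle in the shares was not tested.

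**Figure D1:**
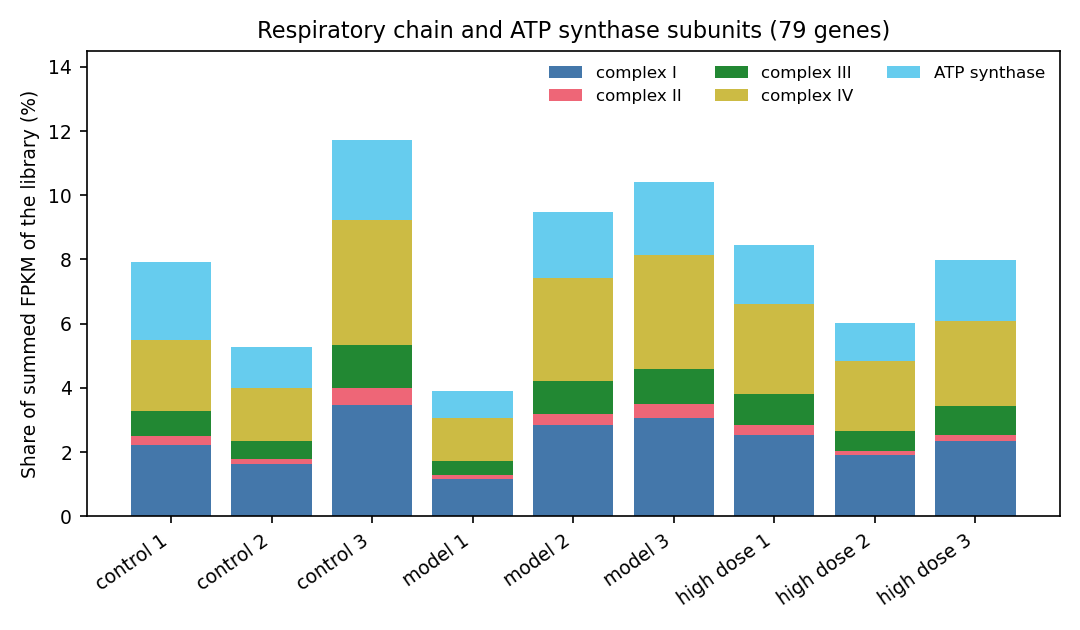
Share of all FPKM taken by the respiratory chain and ATP synthase genes in each of the 9 libraries, in percent and split by complex. The share is lowest in model 1 (3.90%) and highest in control 3 (11.7%), and the 3 groups overlap.

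Many members had their highest or their lowest level in the same library. Of the 79, 41 were highest in control 3 and 54 were lowest in model 1, while 15 were lowest in high dose 2. The median member differed 3.38-fold between its highest and its lowest library. The median SD of log2(FPKM + 1) over the 9 libraries was 0.57 for members and 0.42 for all genes tested. Across members, the correlation of 2 libraries' log2 levels was 0.961 to 0.993 among the 5 libraries low in cardiac genes, 0.896 to 0.981 among the 4 high in them, and 0.754 to 0.871 between the 2 kinds. The members with the largest SD over the libraries, Cox6a2 and Atp5g1, were high in these 4 libraries, after subtraction of each library's median member. Relative to that median, Cox6a2 spanned 8.91 and Atp5g1 5.52 log2 units over the libraries, and the next member, Cox6a1, 2.51. Correlations without these genes are not given, so their part in the lower values was not tested. The correlations are descriptions over 79 genes of the same libraries.

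**Figure D2:**
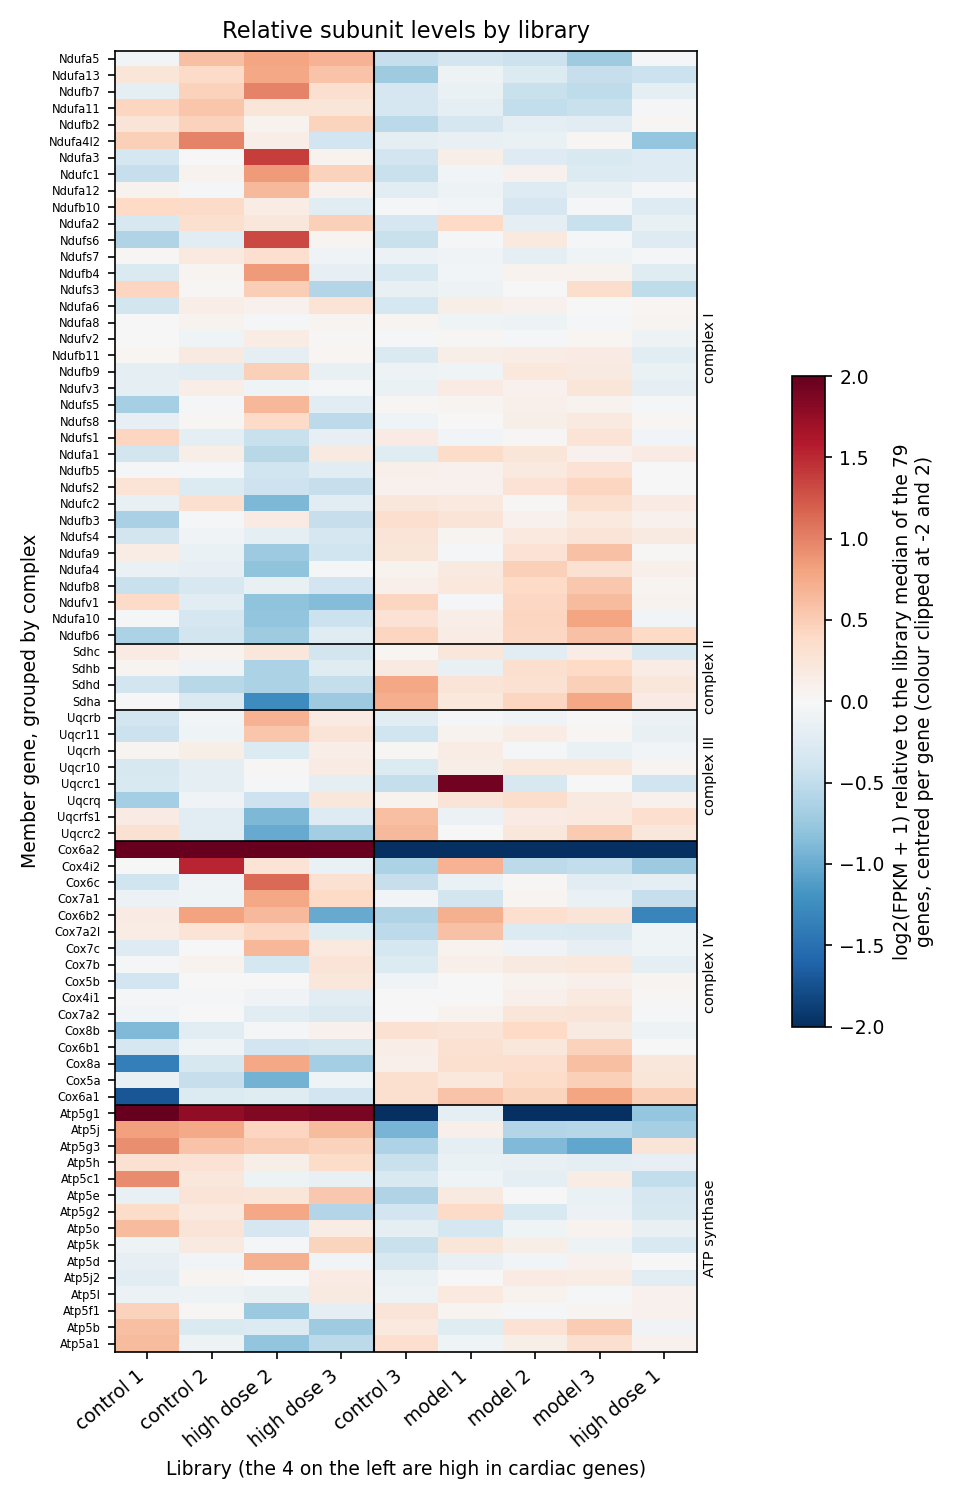
Each row is 1 of the 79 members, grouped by complex, and each column a library, with the 4 libraries high in cardiac genes on the left. Colour gives log2(FPKM + 1) after subtraction of the library's median over the 79 genes and of the gene's own mean, clipped at -2 and 2. Cox6a2 and Atp5g1 are high in all 4 libraries on the left, and Uqcrc1 stands out in model 1.

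Ndufs1, Ndufv1, Sdha, Sdhb, Uqcrfs1, Cox4i1, Cox5a, Atp5a1 and Atp5b, subunits of the 5 complexes, were all lowest within their groups in control 2, model 1 and high dose 2. Uqcrc1, a core subunit of complex III near the level filter, differed. It was lowest in control 2 and high dose 2 within their groups but highest of all libraries in model 1, at 7.85 FPKM. Ndufs1, which carries iron-sulfur clusters of complex I, stood at 116, 48.9 and 150 FPKM in the control libraries, at 39.5, 98.8 and 122 in the model libraries and at 83.5, 45.7 and 78.9 in the high dose libraries. Ndufv1, which binds NADH in complex I, stood at 271, 115 and 430 FPKM in control, 96.6, 313 and 377 in model and 221, 86.5 and 116 in high dose. In both genes the 3 groups overlapped.

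Sdha, the catalytic flavoprotein of complex II, stood at 258, 138 and 666 FPKM in control, 145, 399 and 525 in model and 296, 79 and 162 in high dose. Sdhb, its iron-sulfur partner, was at 372, 220 and 630, then 155, 509 and 553, then 400, 168 and 313 FPKM in the same order. Both genes were highest in control 3. Sdha was lowest in high dose 2 and Sdhb in model 1. Among the 79 members Sdha had the third largest SD over the libraries, 1.00 on the log2 scale.

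Uqcrfs1, the Rieske iron-sulfur protein of complex III, was at 339, 169 and 705 FPKM in control, 135, 386 and 406 in model and 385, 118 and 260 in high dose. Cox5a, a structural subunit of complex IV, was at 459, 237 and 977 FPKM in control, 284, 744 and 828 in model and 607, 192 and 490 in high dose. Both had their highest level in control 3 and their lowest in high dose 2. Cox4i1, the common form of another complex IV subunit, was the most abundant member by its median, 1437 FPKM, and its group means were 1542 ± 681, 1486 ± 676 and 1282 ± 244 FPKM (SD, n = 3).

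The catalytic head of ATP synthase was represented by Atp5a1, the alpha subunit, and Atp5b, the beta subunit. Atp5a1 stood at 989, 387 and 1249 FPKM in control, 292, 789 and 933 in model and 690, 272 and 459 in high dose. Atp5b stood at 2029, 712 and 2367, then 548, 1873 and 2234, then 1299, 813 and 843 FPKM. The groups overlapped in both.

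Members near the level filter were set apart from their partners. Ndufs3, a core subunit of complex I, ran from 0.781 to 4.92 FPKM and Uqcrc1, a core subunit of complex III, from 1.70 to 7.85, while most partners in the same complexes exceeded 100 FPKM. Just outside the filter, Ndufa7 stood at 0.138 to 0.385 FPKM, Cox7b2 at 0 except for 1.24 in high dose 3, and Cox8c was listed at 0 in all 9 libraries. In the GENCODE annotation on GRCm38, 4.04% of the exon bases of Ndufs3 overlap a gene on the opposite strand, and none of those of Uqcrc1 or Ndufa7 overlap another gene. Why these genes are listed so low was not tested. The 13 subunits encoded by mitochondrial DNA were not analysed here.

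The members with the largest SD between libraries, Cox6a2 and Atp5g1, both belong to sets of paralogous isoforms. Cox6a2 is the heart and skeletal muscle form of a complex IV subunit and Cox6a1 the form of other tissues. Cox6a2 stood at 1358, 528 and 15.7 FPKM in control, at 4.09, 2.75 and 9.40 in model and at 6.14, 1169 and 1093 in high dose. Its share of the Cox6a pair was 48.0% to 80.6% in control 1, control 2, high dose 2 and high dose 3, and 0.166% to 0.748% in the other 5 libraries. The high libraries were the same 4 that were high in cardiac markers, and Cox6a2 had the largest SD of all members, 3.77 on the log2 scale. Cox6a1 went the other way within control, at 327, 572 and 2078 FPKM, and stood at 769, 1656 and 2187 in model and 1521, 663 and 849 in high dose.

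Atp5g1 showed the same split among the 3 c subunit genes. Its level was 520, 201 and 16.6 FPKM in control, 37.6, 23.7 and 24.6 in model and 53.2, 241 and 350 in high dose. It supplied 25.6% to 32.9% of the c subunit transcripts in the 4 libraries high in cardiac markers and 2.42% to 10.8% in the other 5. Atp5g2 was among the 3 steadiest members, at 278, 160 and 254 FPKM in control, 135, 198 and 231 in model and 174, 269 and 148 in high dose. Atp5g3, the most abundant of the 3 genes in every library, supplied 45.7% to 68.8%. The adenine nucleotide carriers, which exchange ATP for ADP and are no members, showed the same order. Slc25a4, the muscle form, made up 88.8% to 95% of its pair with Slc25a5 in the 4 libraries and 56.8% to 68.0% in the other 5.

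**Figure D3:**
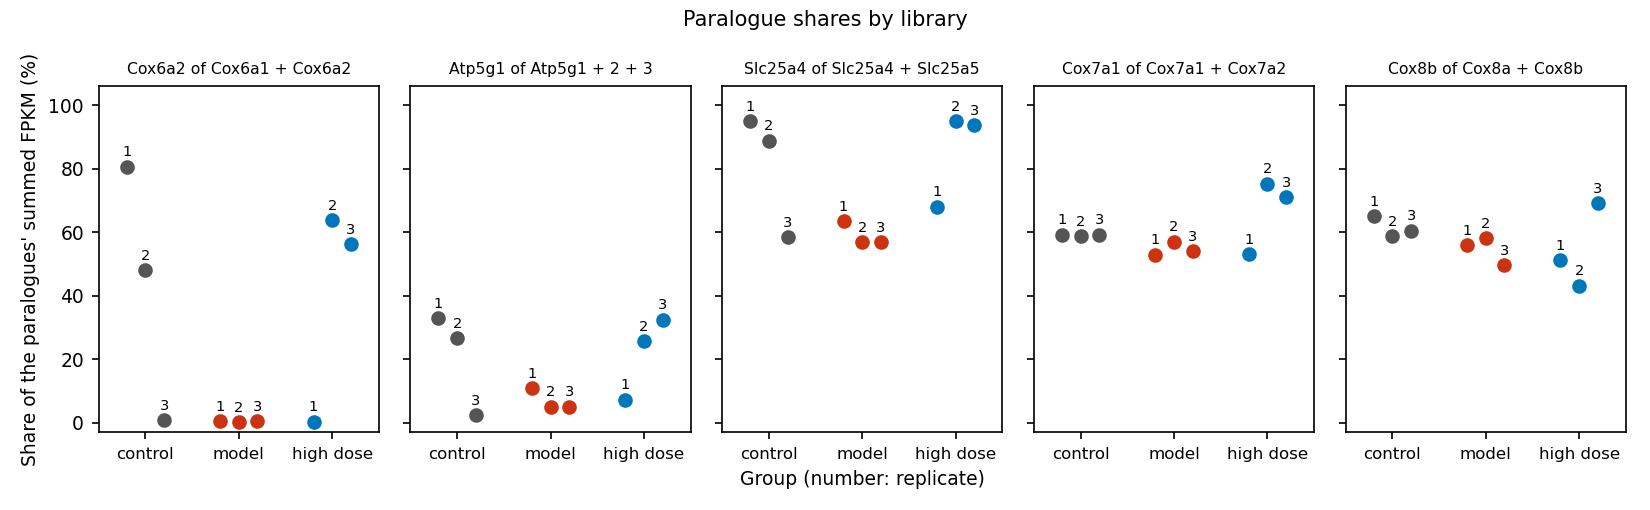
Share of an isoform in its paralogous set, in percent of the set's summed FPKM, with 1 numbered point for each of the 9 libraries by group. Cox6a2 reaches 48.0% to 80.6% in control 1, control 2, high dose 2 and high dose 3 and stays under 1% in the other 5 libraries, while Cox7a1 and Cox8b do not split the libraries in this way.

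Other isoform pairs did not split this way. Cox7a1, the muscle and brown fat form, made up 58.8% to 59.2% of its pair with Cox7a2 in control, 52.9% to 57.0% in model and 53.0%, 75.2% and 71.0% in high dose 1, 2 and 3. Cox8b, also found in muscle and brown fat, made up 43.2% to 69.1% of its pair with Cox8a, with the lowest share in high dose 2 and the highest in high dose 3. Cox4i2, a form linked to the response to low oxygen, was 0.166% to 1.03% of its pair with Cox4i1. Cox6b2, known from testis, was 0.2% to 1.27% of its pair with Cox6b1, and Ndufa4l2, a target of hypoxia-inducible factor, 1.38% to 5.60% of its pair with Ndufa4. Cox7a2l, which takes part in joining complexes III and IV, was the steadiest member, at 144 to 221 FPKM (SD 0.20 on the log2 scale), followed by Ndufa2 at 140 to 318 FPKM and Atp5g2.

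The first comparison set model against control, that is, ApoE-/- mice on a high-fat diet against C57BL/6J mice on a standard diet. No member passed limma's test at an adjusted p under 0.05, and neither did any other gene (0% of 12895 tested). The members' median difference was -0.04 on the log2(FPKM + 1) scale, or 0.06 with quantile normalization, and the median of all genes was -0.01. Of the members 27 lay above 0 and 52 below, against 48.7% and 51.3% of all genes. At an unadjusted p under 0.05, 0 members were higher and 3 lower, against 3.62% and 2.75% of all genes. Array weights for the 9 libraries were largest in model 2 (5.92), model 3 (3.00) and control 1 (2.00) and smallest in control 3 (0.379). Control 1 is high in cardiac genes, and the other 3 named libraries are not. With these weights 3 members were lower (3.8%, against 3.28% of all genes) and 0 higher (against 2.02%). The 3 were Atp5g3, Cox6a2 and Atp5g1, each with an adjusted p of 0.0434 in limma.

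The 15 ATP synthase genes had a median difference of -0.38, and all 15 lay below 0 (Atp5k at -0.0004), or 10 of 15 with quantile normalization, where the median was -0.28. The count moved with single libraries, to 8 of 15 (median -0.01) without model 1 and 9 (median -0.12) without control 3, and it was 9 with array weights and 14 without the 4 libraries high in cardiac genes. Complex I had a median of -0.04, complex II of 0.02, complex III of 0.08 and complex IV of -0.003, and with quantile normalization those of complexes I and IV turned to 0.06 and 0.08. Without model 1 the medians of complexes I to IV were 0.41, 0.58, 0.38 and 0.43, and without control 3 they were 0.23, 0.51, 0.38 and 0.24. Without control 2 they were -0.34, -0.43, -0.15 and -0.25. With the cardiac list mean as a covariate the median of complex I was -0.41, with 35 of 36 genes below 0. Without the 4 libraries high in cardiac genes it was -0.71, with 36 of 36 below 0. That omission sets the model libraries against control 3 alone, the library highest in brown fat markers (11789 FPKM) and in member share (11.7%).

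In 8 members the 3 model libraries all lay below the 3 control libraries (10.1% of members, against 9.06% of all genes), and in 0 members they all lay above (against 6.91%). The 8 were Atp5g3, Atp5j, Cox6a2, Cox4i2, Ndufa4l2, Ndufa5, Ndufa11 and Ndufb7. Between the same libraries the summed macrophage markers were higher and the chromaffin and sympathetic markers lower in model without overlap, and their part in these differences was not tested. Atp5g3 (chr2:73908447-73911326, minus strand) stood at 781, 396 and 414 FPKM in the control libraries and at 175, 252 and 235 in model. The groups did not overlap, with means of 530 ± 218 and 220 ± 40.4 FPKM (SD, n = 3). The log2 difference was -1.21 ± 0.34 (SE; 95% interval -1.98 to -0.43; limma adjusted p = 0.688). Atp5j, another subunit of ATP synthase, stood at 448, 277 and 206 FPKM in the control libraries and 131, 192 and 200 in model.

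The 3 accessory subunits of complex I among the 8 had tighter control values. Ndufa5 stood at 377, 386 and 443 FPKM in the control libraries and 147, 331 and 283 in model. Ndufb7 stood at 400, 405 and 555 FPKM in the control libraries and 199, 380 and 376 in model. Ndufa11 stood at 72.8, 51.3 and 66.4 FPKM in the control libraries and 22.1, 43.4 and 46.2 in model, a log2 difference of -0.81 ± 0.31 (SE, limma adjusted p = 0.732), and 6.41% of its exon bases overlap a gene on the opposite strand. In all 3 the gap between the groups was narrow beside the distance of model 1 from the other model libraries. Ndufa4l2 stood at 36.0, 33.4 and 35.1 FPKM in the control libraries and 10.5, 26.4 and 30.6 in model. Cox4i2 stood at 4.75, 9.62 and 4.68 FPKM in the control libraries and 3.46, 3.51 and 3.75 in model. Cox6a2 differed by -5.29 ± 2.14 (SE, limma adjusted p = 0.746), and control 3, at 15.7 FPKM, was nearer to the model libraries than to the other control libraries. Without control 2, the number of members with every model library lower was 17 (against 11.3% of all genes), and against control 3 alone, without the 4 libraries high in cardiac genes, it was 58 (against 25.9%). Without model 1 the number with every model library higher was 6 (against 12.8%), and without control 3 it was 4 (against 11.7%).

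The members of smallest p among those higher in model were Uqcrc1, Cox6a1 and Cox8a. Uqcrc1 differed by 0.65 ± 0.34 (SE, limma adjusted p = 0.764), with 2.84, 1.70 and 4.30 FPKM in the control libraries and 7.85, 3.32 and 4.56 in model. Cox6a1 differed by 0.95 ± 0.72 and Cox8a by 0.74 ± 0.64 (limma adjusted p = 0.841 and 0.858). Cox8a, the common form of the smallest complex IV subunit, stood at 319, 427 and 1362 FPKM in the control libraries and 500, 1180 and 1474 in model. Neither Cox6a1 nor Cox8a separated the groups, since control 3 lay among the model libraries. Their differences turned to -0.56 and -0.51 when the 4 libraries high in cardiac genes were left out, which leaves control 3 alone in its group, so that its spread is taken from the other groups.

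**Figure D4:**
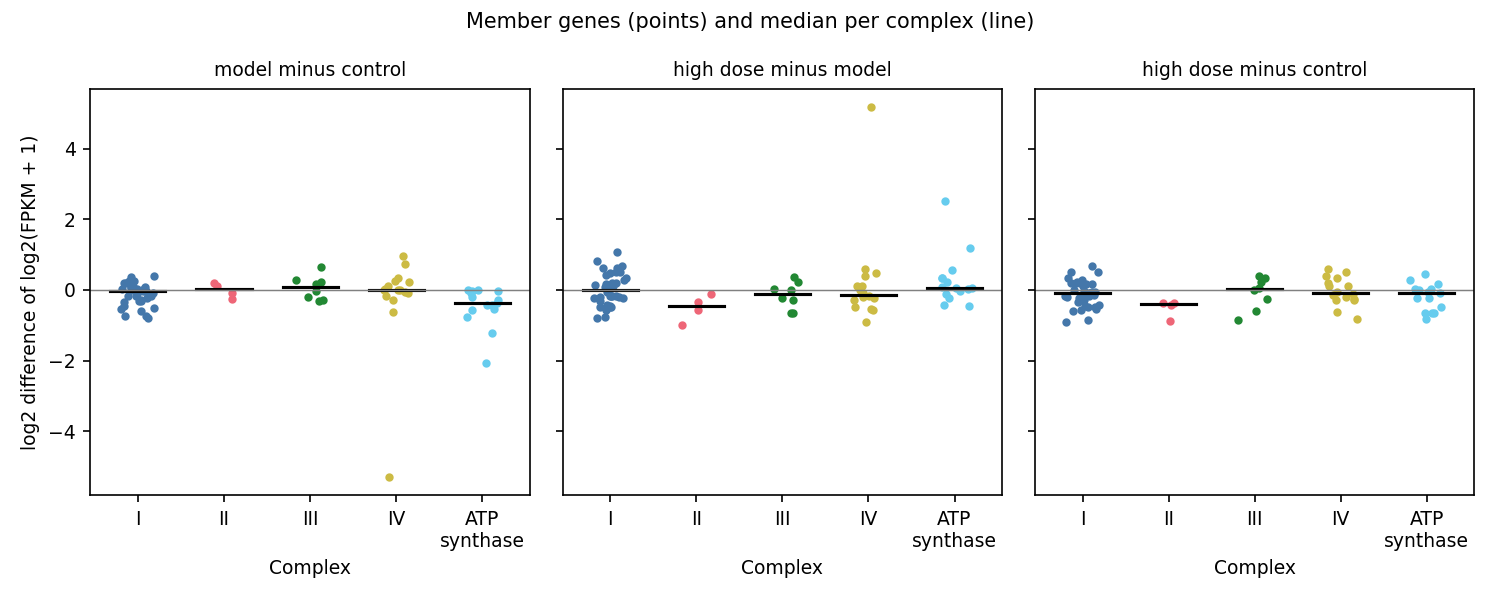
Fitted log2(FPKM + 1) difference of every member in the 3 comparisons, by complex, with 1 point for each gene and a line at the median of the complex. All 15 ATP synthase genes (10 with quantile normalization) lie below 0 in model minus control and all 4 complex II genes lie below 0 in high dose minus model, and no point passed the adjusted threshold.

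The second comparison set high dose against model, ZCL being the difference between them. It shares the 3 model libraries with the first. No member and no other gene passed limma's adjusted threshold (0% of 12895). The members' median difference was -0.04, beside 0.0008 over all genes. Of the members 37 lay above 0 and 42 below, against 50.1% and 49.9% of all genes. At an unadjusted p under 0.05, 4 members were higher and 1 lower, against 6.86% and 6.55% of all genes. The 4 genes of complex II all lay below 0, with a median of -0.46. This median became -0.98 without model 1. It became 0.02 without the 4 libraries high in cardiac genes, which leaves high dose 1 alone in its group. Medians were 0.05 for ATP synthase (-0.12 with quantile normalization), -0.001 for complex I, -0.12 for complex III and -0.14 for complex IV. Without model 1 those of complexes I, III and IV were -0.49, -0.42 and -0.60, and without model 3 they were 0.26, 0.09 and 0.07.

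In 5 members (6.33%, against 11.7% of all genes) every high dose library lay above every model library, and in 0 members (against 10.9%) every one lay below. The 5 were Atp5g1, Atp5g3, Ndufa5, Ndufa11 and Ndufb7. Atp5g3 stood at 500.3, 429 and 583 FPKM in high dose (504 ± 77.3, SD, n = 3), with no library below 429 and none above 252 in model. Its log2 difference was 1.2 ± 0.34 (SE; 95% interval 0.42 to 1.97; limma adjusted p = 0.259). Ndufa5 stood at 388, 498 and 660 FPKM in high dose, a log2 difference of 1.07 ± 0.36 (SE, limma adjusted p = 0.311). Ndufb7 stood at 408, 667 and 589 FPKM and Ndufa11 at 53.5, 46.8 and 66. Summed cardiac markers were 27.9, 10331 and 17597 FPKM in high dose 1, 2 and 3, and summed chromaffin and sympathetic markers 1675, 53.4 and 7.06, against 0.228 to 2.35 in model. The part of these tissues in the differences was not tested.

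**Figure D5:**
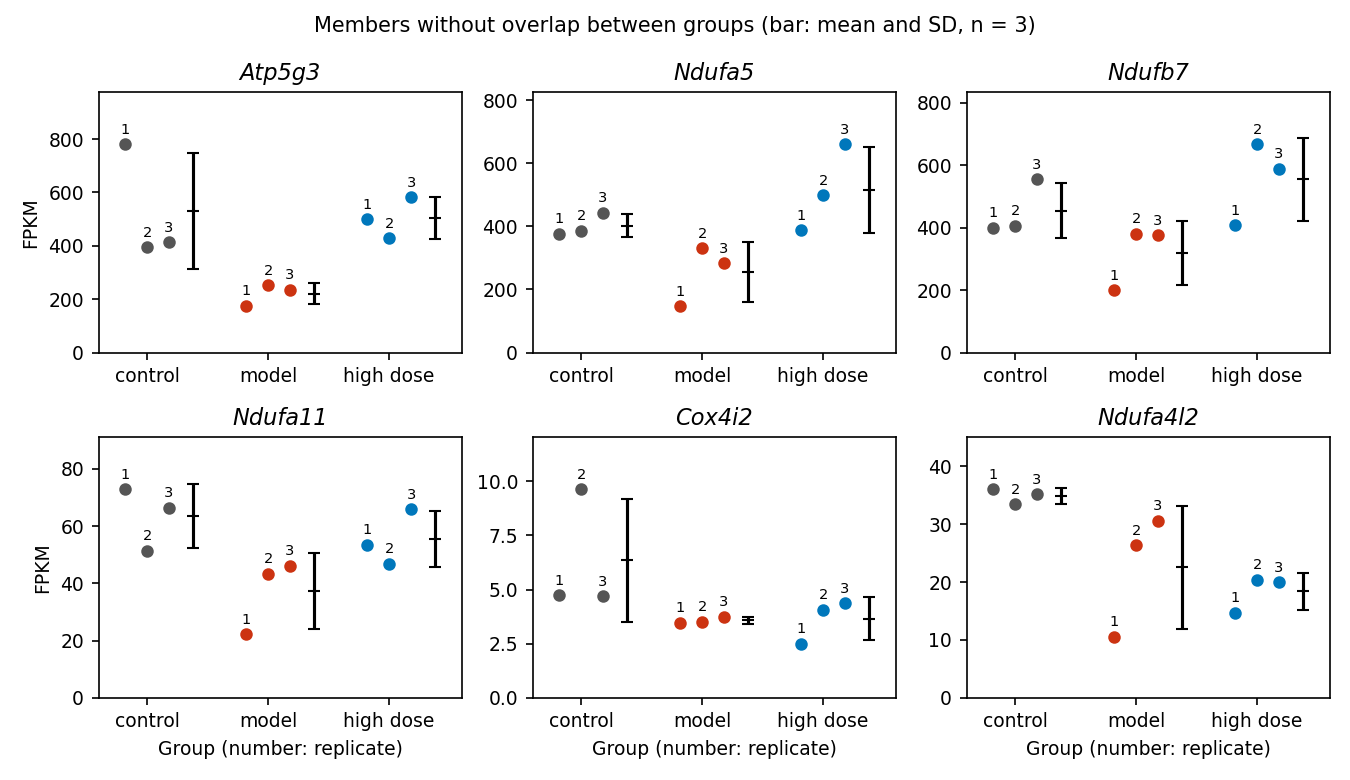
FPKM in each library of 6 members whose groups did not overlap in at least 1 comparison, with 1 numbered point for each library and a bar for the mean and SD (n = 3). Atp5g3 stands at 175 to 252 FPKM in the model libraries and at 396 or more in the other 6.

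Cox6a2 differed by 5.16 ± 2.14 between high dose and model (SE, limma adjusted p = 0.362), and high dose 1, at 6.14 FPKM, lay among the model libraries. The lower members of smallest p were Cox6b2 at -0.91 ± 0.40, Uqcrc1 at -0.65 ± 0.34 and Sdha at -1.0 ± 0.72 (SE, limma adjusted p = 0.372, 0.407 and 0.538). Cox6b2 stood at 5.98, 11.6 and 11.3 FPKM in model and 2.58, 9.17 and 3.49 in high dose. All 3 of these genes overlapped between the groups. Without model 1, 45 members had every high dose library below both remaining model libraries, against 19.8% of all genes, where the full comparison had 0. Without high dose 1, 15 members had every high dose library above the model libraries, against 19.7% of all genes.

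The third comparison set high dose against control and shares its libraries with the other 2. No member and no other gene passed limma's adjusted threshold (0% of 12895), and the members' median difference was -0.09 beside 0.002 over all genes. Of the members 28 lay above 0 and 51 below, against 50.2% and 49.8% of all genes. At an unadjusted p under 0.05, 0 members were higher and 1 lower, against 2.64% and 2.8% of all genes. The median of complex II was -0.40, of ATP synthase -0.08, of complex I -0.09, of complex III 0.03 and of complex IV -0.09. Without control 2 the medians of complexes I to IV were -0.37, -0.87, -0.21 and -0.19, and without control 3 they were 0.20, -0.07, 0.38 and 0.19. In 2 members (2.53%, against 5.02% of all genes) every high dose library lay below every control library, and in 0 (against 3.66%) every one lay above. Without control 2 the number below was 19 (against 7.3%), and without control 3 the number above was 19 (against 6.94%). With the 4 libraries high in cardiac genes left out, high dose 1 was below control 3 in 77 of 79 members (against 39% of all genes) and above it in the other 2, Atp5g1 and Atp5g3.

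The 2 members with every high dose library below control were Ndufa4l2 and Cox4i2. Ndufa4l2 stood at 14.7, 20.4 and 20.0 FPKM in high dose against 33.4 to 36.0 in control, a log2 difference of -0.90 ± 0.36 (SE, limma adjusted p = 0.863). Cox4i2 stood at 2.51, 4.07 and 4.37 FPKM in high dose against 4.68 to 9.62 in control, a difference of -0.62 ± 0.29 (limma adjusted p = 0.888). Both genes were also without overlap between model and control, and that comparison uses the same control libraries. Cox6b2 followed at -0.81 ± 0.40 (adjusted p = 0.888). The higher members of smallest p were Ndufs6, Cox6c and Ndufc1, at 0.67 ± 0.48, 0.59 ± 0.48 and 0.51 ± 0.41 (SE, limma adjusted p = 0.888, 0.891 and 0.891). Ndufs6, a small zinc-binding subunit of complex I, was at 177, 149 and 306 FPKM in the control libraries and 229, 496 and 287 in high dose. Ndufs6 and Cox6c were highest of all in high dose 2. Without the 4 libraries high in cardiac genes, which leaves high dose 1 against control 3, the 3 differences turned to -0.42, -0.35 and -0.41.

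Genes that serve the chain without being members were read from lists of the pathway, and no gene of these lists passed limma's adjusted threshold in any comparison. Regulators of mitochondrial biogenesis had medians of -0.22, -0.12 and -0.24 over 13 genes in the comparisons in the order given. Of these 10, 7 and 10 lay below 0, against 51.3%, 49.9% and 49.8% of all genes. Ppargc1a, the coactivator PGC-1alpha, stood at 8.20, 2.71 and 6.72 FPKM in the control libraries and 0.657, 2.46 and 2.41 in model, and differed by -1.25 ± 0.46 (SE, limma adjusted p = 0.713). Perm1, a muscle gene that acts with PGC-1alpha, stood at 23.2, 5.64 and 17.8 FPKM in control, 1.08, 3.04 and 5.62 in model and 11.2, 14.0 and 17.1 in high dose. All 3 model libraries were below all others for Perm1, by a narrow margin from control 2, with differences of -1.92 ± 0.54 from control and 1.96 ± 0.54 in high dose minus model (SE, limma adjusted p = 0.688 and 0.254). Pprc1, a coactivator of the same family as PGC-1alpha, went the other way: it stood at 4.52, 4.72 and 2.79 FPKM in the control libraries and, without overlap, at 6.08, 5.86 and 5.23 in the model libraries. It is named for this contrast, after its values were seen, and its high dose libraries stood at 2.58, 5.96 and 5.79 FPKM.

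Enzymes of the tricarboxylic acid cycle supply the chain with NADH and succinate. Their medians over 16 genes were 0.11, -0.56 and -0.54 in the comparisons in the order given. In high dose minus model 14 lay below 0 and in high dose minus control 15, against 49.9% and 49.8% of all genes. Values with single libraries left out are not given for this list. Complex II, whose 4 genes are in that cycle too, had 0.02, -0.46 and -0.40. Cs, citrate synthase, stood at 289, 187 and 844 FPKM in control, 179, 494 and 648 in model and 412, 160 and 228 in high dose, and the groups overlapped. The nucleotide and phosphate carriers and porins had medians of -0.70, 0.71 and -0.10 over 6 genes, with Vdac1, a porin of the outer membrane, at 298, 122 and 176 FPKM in the control libraries and 76.5, 84.4 and 108 in model. Proteins of the mitochondrial ribosome had -0.19, 0.04 and -0.09 over 74 genes, assembly factors of the complexes -0.18, -0.04 and -0.22 over 44, and coenzyme Q synthesis -0.42, -0.07 and -0.17 over 11. The 7 further genes of the chain and ATP synthase whose symbols the name patterns miss had -0.30, 0.34 and -0.03. Among them are Cyc1, Cycs, which encodes cytochrome c, and the ATP synthase inhibitor Atpif1. Atpif1 stood at 58.2, 58.6 and 17.6 FPKM in control, 38.8, 22.6 and 17.8 in model and 42.8, 107 and 62.1 in high dose. Its high dose libraries lay above the model libraries without overlap, by a narrow margin, as did 11.7% of all genes.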

How the data were processed

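RNA of mouse aortic arch was sequenced in 9 libraries, 3 for each group, all with batch label 1. Per the labels' protocols, 1.5 µg of RNA went into each library and messenger RNA was purified. The authors deposited a table of FPKM values on mouse builds GRCm38.p5 and mm10, per the submitters' processing notes. The aligner, the counter and strandedness were not given in the sources used here. A few abundant transcripts lower the FPKM of all others, and without counts no counting interval was computed.

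Groups and columns were taken from the sample titles. Values were transformed to log2(FPKM + 1), which understates the change of low genes, and tested with limma 3.58.1 in R 4.3.3 (1 fit of all 9 libraries, a mean per group, empirical Bayes with trend, two-sided, Benjamini-Hochberg over 12895 genes with at least 1 FPKM in at least 3 libraries, threshold 0.05). Simulations of the model minus control fit changed 200 of 12895 genes. With the spread unscaled (factor 1), 0% of these genes were recovered at a log2 change of 1, 64% at 2 and 91% at 4. With the spread factor at 0.25, 92% were recovered at a log2 change of 1. With no change added, 0 genes were called at either factor. A count of 0 past the threshold therefore does not exclude log2 changes of 1. Python 3.11.15, pandas 2.3.3, numpy 2.4.6 and matplotlib 3.10.9 were used for tables and figures. Positions and exon overlaps are from GENCODE M21 on GRCm38, promoters from RefSeq. Members given by library were core subunits, paralogous isoforms, the 3 of smallest p in each direction and comparison, and the 3 of largest and of smallest SD, plus those without overlap between groups. The members and gene lists were chosen with earlier results of these data known. Alternatives were another pseudocount, filter, scaling, weighting, fit or block, the omission of each library, and 2 chosen after seeing the data, the mean of the cardiac list as a covariate and omission of the 4 libraries with Myh6 of at least 500 FPKM.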

Additional observations from a re-analysis of the deposited data

How the results depend on the processing

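The number of members past the adjusted threshold was 0 in every comparison under every alternative run except array weights, which gave 3 in model minus control. The members' median difference in model minus control became -0.66 without the 4 libraries high in cardiac genes, which leaves control 3 alone in its group. Leaving out each library in turn moved the members' median between -0.33 (without control 2) and 0.38 (without model 1) in model minus control, between -0.46 (without model 1) and 0.18 (without model 3) in high dose minus model, and between -0.34 (without control 2) and 0.16 (without control 3) in high dose minus control, so its sign depended on single libraries. Over the whole table, 0 genes passed in the reported fit. High dose minus model gave 6 with array weights, 1 with only the 2 groups compared, 591 without the 4 libraries and 0 to 46 with single libraries left out (46 without high dose 3). Model minus control gave 684 with array weights, and high dose minus control gave 229 without the 4 libraries. Differences that changed sign were Cox6a1 in model minus control, at -0.038 with the cardiac covariate and -0.56 without the 4 libraries, and, also without these, Cox8a at -0.51 in model minus control and Cox6c at -0.35, Ndufc1 at -0.41 and Ndufs6 at -0.42 in high dose minus control. The cause of these changes was not tested. The same replicate numbers occur in each group, but correlations of same-numbered libraries' deviations ran from -0.522 to 0.306, so the numbers were not taken to pair libraries. With the replicate block the medians were -0.04, -0.04 and -0.09 and 0 members passed. Depth is known only in relative terms, since the table holds no counts. The 4 libraries high in cardiac genes are 2 of control and 2 of high dose.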
